A study of Danio rerio with 6 samples.

Results

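The genes described here encode the solute carrier (SLC) families that move amino acids across membranes: SLC1, SLC3, SLC6, SLC7, SLC36, SLC38 and SLC43. They were taken by symbol from a table of read counts per Ensembl gene. Of its 25640 genes, 17999 had a symbol, and 68 matched these 7 families by it. Of the 68 genes, 66 had enough reads to be tested; slc7a8b (ENSDARG00000054343) and SLC6A11 (ENSDARG00000087981) did not. One of the 68, SLC7A6OS (ENSDARG00000010596), matched by its symbol only. It is named for its place beside SLC7A6, and its product is no carrier. SLC7A6OS stays in the counts, medians and sums below, where the matched genes are called carriers for short.

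The samples were 6 RNA-seq libraries, made from the polyadenylated RNA of adult zebrafish livers, 3 of WT fish and 3 of fish of the transgenic genotype lf:Yap. The title of the series puts the comparison in the setting of Yap, a transcriptional coactivator restrained by the Hippo kinases, and its effect on glutamine use, nucleotide synthesis and liver growth. The promoter and the Yap allele of the transgene, the age and sex of the fish and the number of fish in a library are not stated in the labels. Both genotypes shared the adult stage and the tissue, and no drug or diet is labelled.

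Amino acid carriers set how much glutamine, essential amino acid and charged amino acid a cell can take up or release. SLC38 and SLC1 carriers are driven by sodium, and in mammalian liver the SLC38 carriers handle glutamine and alanine. SLC7 light chains exchange one amino acid for another and, for many of them, reach the plasma membrane only when joined to a heavy chain, SLC3A2 or SLC3A1. SLC43 carriers let large neutral amino acids pass down their gradient. SLC36 includes carriers that are coupled to protons and often sit on lysosomes, and SLC6 holds carriers of amino acids, creatine, taurine and neurotransmitters. Roles given below are those known from mammals unless stated otherwise.

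Total counts ran from 71581315 to 87543545 per library, so that counting error was small for genes above a level of 1 CPM, the count scaled to library size. YAP1 (ENSDARG00000068401), counted with any transgene reads that map to it, lay at 20.4 to 27.4 CPM in WT, against 291.4 to 442.9 CPM in lf:Yap (log2 3.99 ± 0.25, SE; edgeR adjusted p = 0.00663). Hepatocyte markers were abundant in every library, with 65790 to 74038 summed CPM over 6 of 6 listed genes in WT and 90201 to 100974 in lf:Yap. The listed genes did not move together. The CPM of tfa, apoa2 and fabp10a lay wholly higher in lf:Yap, and serpina1 and TTR overlapped. FGB (ENSDARG00000008969) lay wholly lower, at 6753 to 8058 CPM in WT, against 5695 to 5996 CPM in lf:Yap. Markers of neighbouring organs differed between libraries. The exocrine pancreas markers, matched by 5 genes for 4 of 6 listed entries, summed to 5593, 260.8 and 565.6 CPM in WT replicates 1, 2 and 3 and to 3916, 30.9 and 6146 CPM in lf:Yap replicates 1, 2 and 3. WT replicate 1 and lf:Yap replicates 1 and 3 were thus high and the other 3 libraries low, in both genotypes. Among the intestine markers, with 5 genes for 4 of 5 entries, the sum was 806.9, 771.2 and 907.9 CPM in WT replicates 1 to 3 and 817.4, 468.6 and 846.8 CPM in lf:Yap replicates 1 to 3, which sets only lf:Yap replicate 2 apart. That sum came mostly from the RBP2 genes (ENSDARG00000070038 and ENSDARG00000093774), and other genes of the list differed from it. VIL1 (ENSDARG00000040466) stood at 26.8 CPM in lf:Yap replicate 1 and at 0.347 to 2.66 CPM elsewhere. FABP2 (ENSDARG00000006427) was also highest in lf:Yap replicate 1, at 79.7 CPM, against 0.909 to 39.2 CPM elsewhere. ANPEP (ENSDARG00000036809) was lowest in that library, at 0.0852 CPM, and RBP2 (ENSDARG00000093774) was below its WT range there, at 224.3 CPM. Both organs lie against the liver in zebrafish. Macrophage markers summed to 230.3 to 281.9 CPM in WT, against 80.6 to 234.7 CPM in lf:Yap, over 17 genes for 5 of 5 entries. That sum came mostly from the MFAP4 genes. The genes of the other entries, MPEG1, marco, csf1rb, SPI1 and spi1a, all overlapped between genotypes, with marco at 6.31 ± 1.64 CPM in WT, against 6.17 ± 1.48 CPM in lf:Yap (SD, n = 3 each). No gene of any of these lists was at 0 in all libraries, but that was fixed in advance. The lowest sum of reads over all libraries for any gene in the count table was 30. In whole tissue, fewer cells of a type and less RNA per cell cannot be told apart.

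More of the carrier genes lay higher than lower in lf:Yap livers, but a single one passed the test over all genes. Log2 fold changes compare lf:Yap with WT and come from edgeR's quasi-likelihood test. At an adjusted p under 0.05, 1 of the 66 tested genes was higher, against 0.555% of all 24674 tested genes, and 0 were lower, against 0.109% (0.665% in both directions together). At an unadjusted p under 0.05, 15 of the 66 were higher (22.7%, against 6.12% of all tested genes) and 1 was lower (1.52%, against 5.2%). The CPM of the 2 genotypes did not overlap for 14 genes on the higher side (21.2%, against 8.84%) and for 2 on the lower side (3.03%, against 8.78%). DESeq2 called 13 higher (19.7%, against 2.74%) and 1 lower (1.52%, against 1.59%), and limma-voom called 1 of 66 (against 0.754% of all genes). The median log2 fold change over the 66 genes was 0.292, beside -0.0341 over all tested genes, and 43 of the 66 were above 0 (65.2%, against 46.8%). Genes with few reads added little to these counts: of the 16 tested genes under a mean of 1 CPM, 8 were above 0, 8 below, and 0 had an unadjusted p under 0.05. Among the 50 genes at 1 CPM or more, 15 were higher at an unadjusted p under 0.05 (30%, against 7.59% of all genes at that level) and 1 was lower (2%, against 5.48%). A further fit used only the 3 libraries low in pancreas markers, WT replicates 2 and 3 against lf:Yap replicate 2. The median of the list was then 0.137, beside -0.0755 over all genes in that fit. That fit, added after seeing the data, has a single lf:Yap library, so only its log2 differences are given below. Each of them shows only where lf:Yap replicate 2 lay against WT replicates 2 and 3. That library also had the lowest sum of intestine markers, so low pancreas markers were not all that set it apart.

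**Figure D1:**
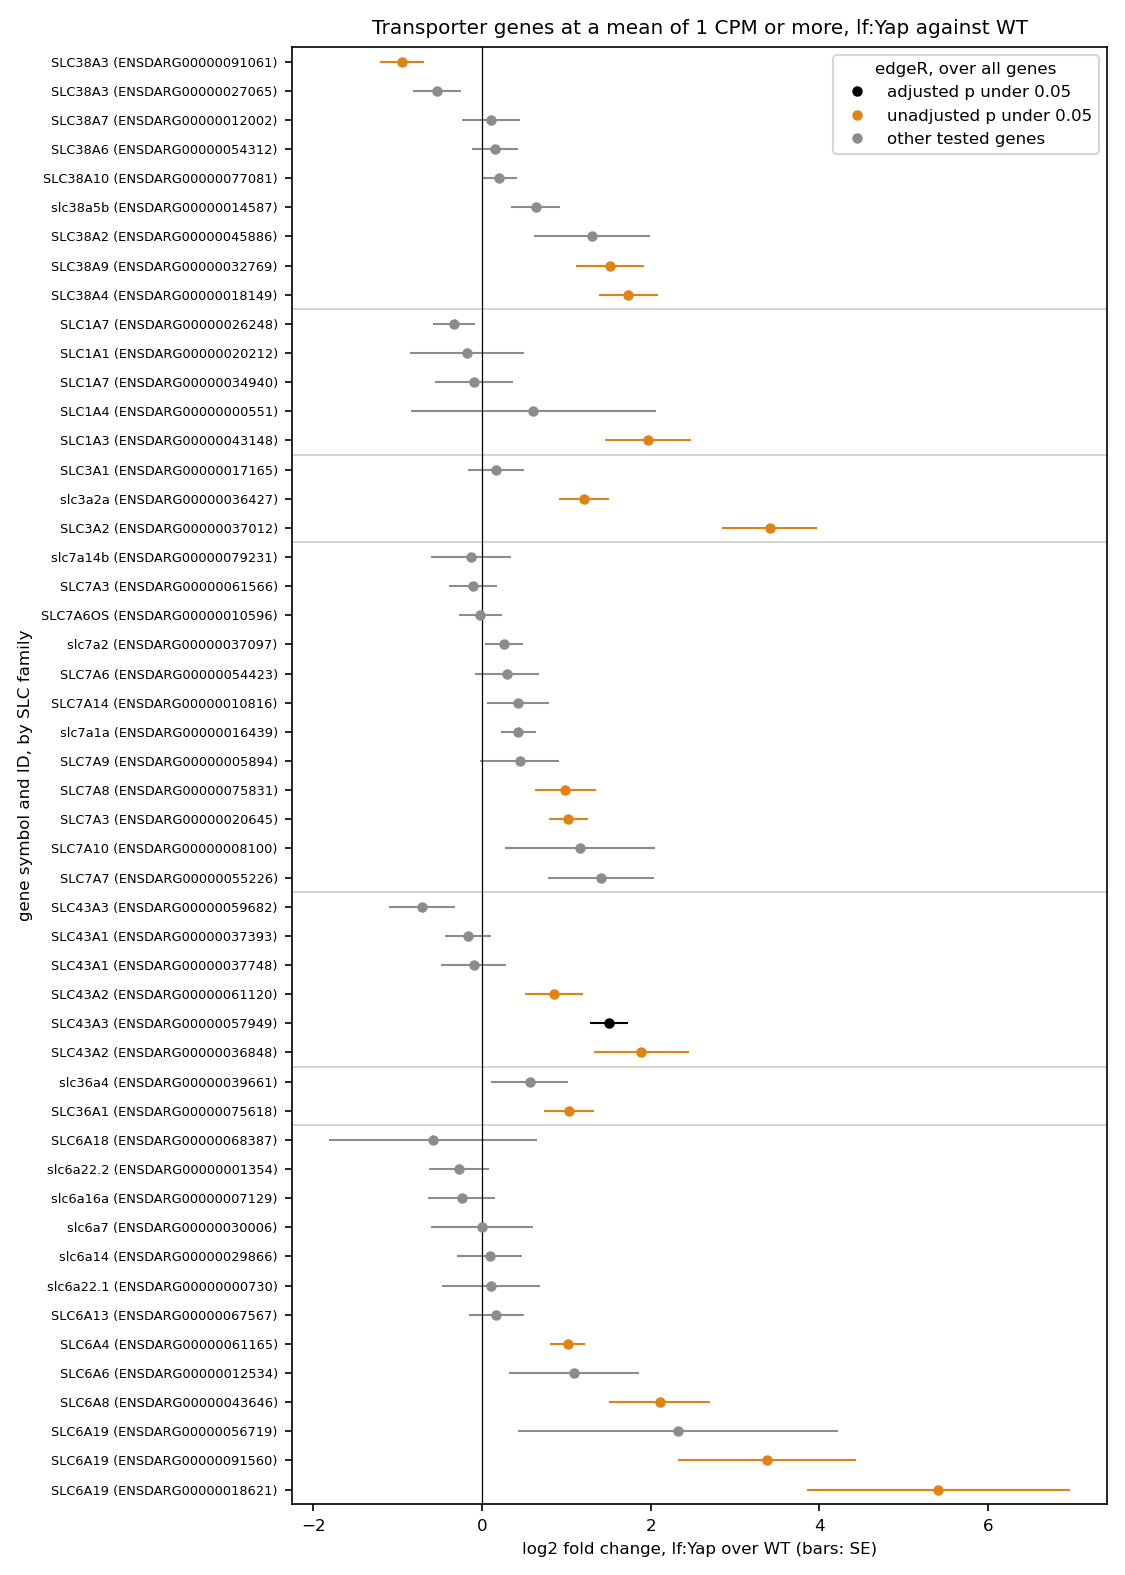
Log2 fold change (x axis, lf:Yap over WT, bars are SE) of the 50 tested carrier genes at a mean of 1 CPM or more, grouped by SLC family, from edgeR with 3 libraries in each genotype. Black marks the 1 gene with an adjusted p under 0.05, orange the other genes with an unadjusted p under 0.05, of which 14 lie to the right of 0 and 1 to the left.

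The SLC38 family, the sodium-coupled neutral amino acid carriers that include the main glutamine carriers, had 12 tested genes, 9 above 0 and 3 below, and its genes with many reads lay on both sides. SLC38A4 (ENSDARG00000018149), a carrier of alanine and other small neutral amino acids found mainly in hepatocytes, read 1831, 1126 and 1154 CPM in WT, against 6814, 3239 and 3609.8 CPM in lf:Yap. All lf:Yap libraries lay above all WT libraries, and lf:Yap replicate 1 was the highest. The difference was 3.32-fold (log2 1.73 ± 0.35, SE, n = 3 each; edgeR adjusted p = 0.107, and 0.000695 by DESeq2), and did not pass edgeR's threshold. The gene took 51.8% ± 4.83 of the reads of all 68 genes in WT and 72.4% ± 7.01 in lf:Yap (SD, n = 3 each), a read share that also depends on transcript length. Summed over the 68 genes the reads were 2.35 times as many in lf:Yap, and 1.29 times without SLC38A4, from 1250.3 ± 158.5 to 1610.1 ± 153.0 summed CPM (SD, n = 3 each). In the libraries low in pancreas markers, with lf:Yap replicate 2 as the only lf:Yap library, its log2 difference was 1.51.

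The counterpart on the lower side was SLC38A3 (ENSDARG00000091061), a sodium and proton coupled carrier of glutamine, asparagine and histidine that in liver can run in both directions. It stood at 135.7, 143.5 and 190.3 CPM in WT, against 78.7, 104.1 and 60.2 CPM in lf:Yap. The groups did not overlap (log2 fold change -0.95 ± 0.26, SE; edgeR adjusted p = 0.221, DESeq2 0.0476). A second gene with that symbol, SLC38A3 (ENSDARG00000027065), read 162.0, 129.6 and 124.8 CPM in WT, against 118.8, 60.5 and 107.7 CPM in lf:Yap. Its lf:Yap libraries also lay below its WT libraries, by a smaller step (-0.54 ± 0.29, SE; edgeR adjusted p = 0.56). These were the 2 genes of the 66 whose lf:Yap values lay wholly under the WT values (3.03%, against 8.78% of all tested genes).

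Next in the family by the rule for named genes came a glutamine carrier and a lysosomal sensor. SLC38A2 (ENSDARG00000045886), a carrier of glutamine and other neutral amino acids that cells induce when amino acids run short, gave 192.4, 140.1 and 26.3 CPM in WT, against 382.1, 356.5 and 147.4 CPM in lf:Yap. WT replicate 3 was the lowest by far, the groups overlapped, and the difference of 1.30 ± 0.69 (log2, SE) had an edgeR adjusted p of 0.557. Its difference ran from 0.816 to 1.83 when single libraries were left out. SLC38A9 (ENSDARG00000032769), which senses arginine at the lysosome for the growth kinase complex mTORC1, read 5.74, 6.93 and 7.57 CPM in WT, against 14.4, 32.1 and 11.5 CPM in lf:Yap. Its groups did not overlap, with lf:Yap replicate 2 the highest (log2 1.52 ± 0.40, SE; edgeR adjusted p = 0.204, DESeq2 0.0155). The other 7 SLC38 genes, among them SLC38A7, a lysosomal glutamine exporter, had log2 differences from -0.04 (SLC38A5, ENSDARG00000009901) to 0.64 (slc38a5b, ENSDARG00000014587), and 0 of them had an unadjusted p under 0.05. The median of the family was 0.21.

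**Figure D2:**
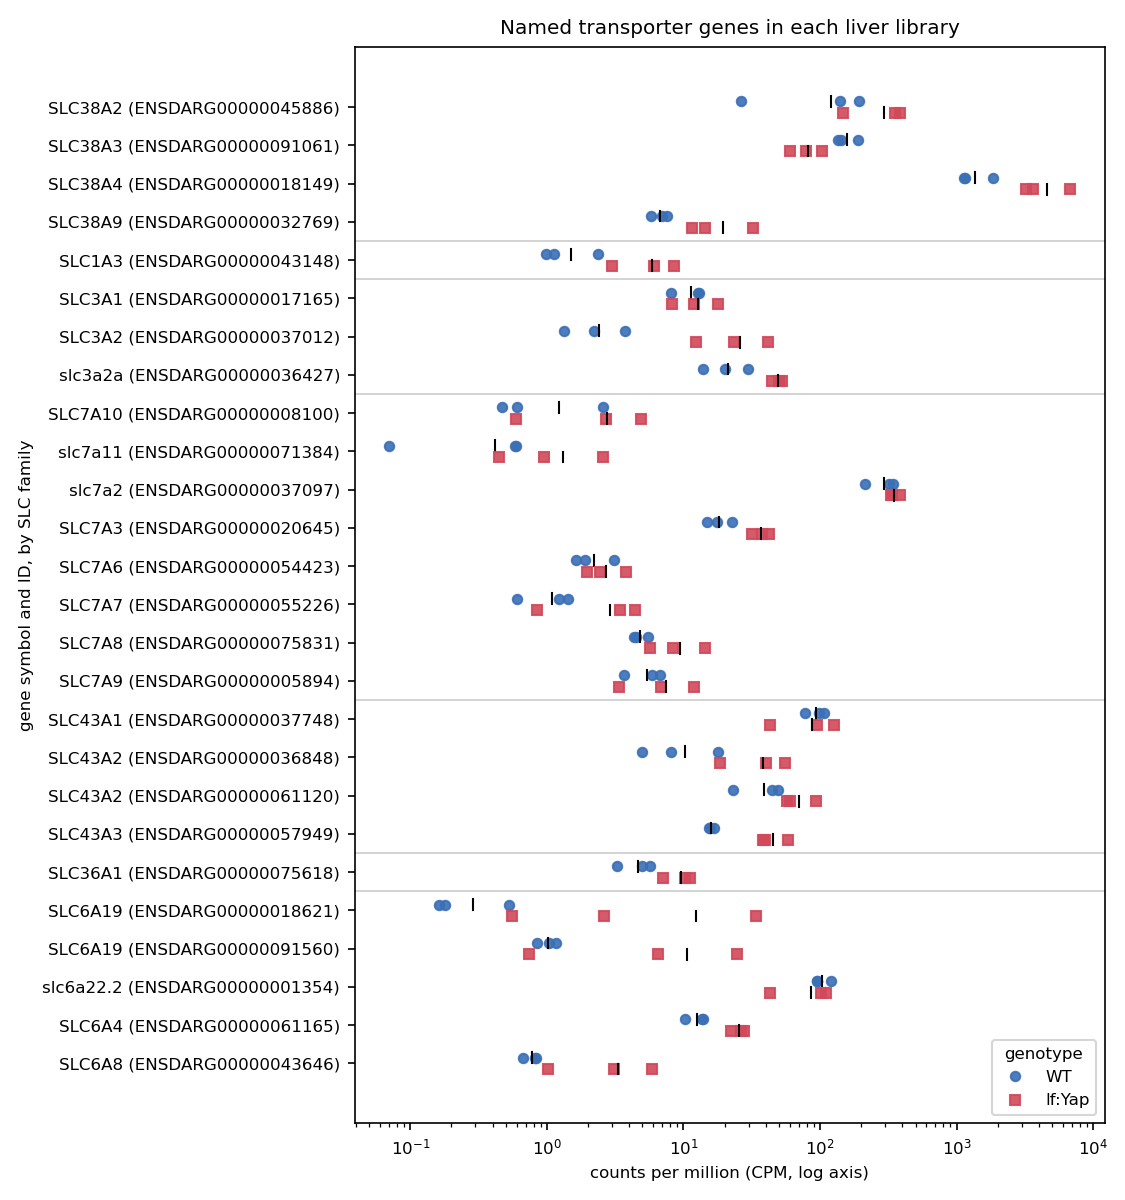
CPM (x axis, log scale) of the 26 carrier genes named by rule, by SLC family, with circles for the 3 WT libraries, squares for the 3 lf:Yap libraries and a bar at each mean. SLC38A4 lies at 1126 to 1831 CPM in WT, against 3239 to 6814 CPM in lf:Yap, while SLC38A3 (ENSDARG00000091061) lies lower in lf:Yap.

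The heavy chains of the SLC3 family, which carry SLC7 light chains to the surface, included the 2 SLC3A2 genes, and both were higher in every lf:Yap library than in any WT library. SLC3A2 (ENSDARG00000037012), the heavy chain also known as CD98, read 3.73, 1.34 and 2.21 CPM in WT, against 12.4, 23.5 and 41.8 CPM in lf:Yap. That was a 10.7-fold difference (log2 3.42 ± 0.56, SE), with an edgeR adjusted p of 0.059, just outside the threshold, and 3.8e-08 by DESeq2. In the libraries low in pancreas markers the difference was 3.73 on the log2 scale. Its paralog slc3a2a (ENSDARG00000036427) read 13.9, 29.8 and 20.01 CPM in WT, against 53.0, 44.8 and 49.9 CPM in lf:Yap (2.32-fold; log2 1.21 ± 0.29, SE; edgeR adjusted p = 0.169, DESeq2 0.0121). The lf:Yap values of this paralog were close together, while those of SLC3A2 were spread out, with replicate 3 the highest. SLC3A1 (ENSDARG00000017165), the heavy chain of the cystine and dibasic amino acid carrier of kidney and gut, overlapped between genotypes, at 11.3 ± 2.76 CPM in WT, against 12.7 ± 4.85 CPM in lf:Yap (SD, n = 3 each).

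Of the light chains that pair with SLC3A2, SLC7A8 was the one named here whose genotypes did not overlap. SLC7A8 (ENSDARG00000075831), an exchanger of large and small neutral amino acids, stood at 4.48, 5.54 and 4.31 CPM in WT, against 14.5, 5.65 and 8.32 CPM in lf:Yap. Its lowest lf:Yap library, replicate 2, was barely above the highest WT library (log2 0.99 ± 0.36, SE; edgeR adjusted p = 0.36), and in the libraries low in pancreas markers the difference was 0.199. SLC7A7 (ENSDARG00000055226), which exchanges cationic for neutral amino acids and sodium, read 1.22, 1.43 and 0.602 CPM in WT, against 4.43, 0.840 and 3.42 CPM in lf:Yap. Its lf:Yap replicates 1 and 3 were high and replicate 2 was within the WT range (log2 1.42 ± 0.63, SE; edgeR adjusted p = 0.468). The same 2 lf:Yap libraries were high in pancreas markers. WT replicate 1 was high in these markers too, but its SLC7A7, at 1.22 CPM, was below that of WT replicate 2, at 1.43 CPM. The log2 difference was 1.10 with that marker sum as a covariate and -0.272 in the 3 libraries low in it; the part of pancreas RNA was not tested. The cystine and glutamate exchanger gene slc7a11 (ENSDARG00000071384) read 0.580, 0.592 and 0.0695 CPM in WT, against 2.56, 0.950 and 0.444 CPM in lf:Yap, with overlap (log2 1.67 ± 0.89, SE; edgeR adjusted p = 0.561). SLC7A6 (ENSDARG00000054423), a relative of SLC7A7, averaged 2.22 ± 0.784 and 2.73 ± 0.929 CPM (SD, n = 3 each). It adjoins SLC7A6OS in the gene order of the RefSeq assembly GRCz12tu, and since the strandedness of the counting is not given, reads of these 2 genes may be mixed. SLC7A10 (ENSDARG00000008100), a carrier of small neutral amino acids, read 2.60, 0.469 and 0.602 CPM in WT, against 2.71, 0.592 and 4.92 CPM in lf:Yap, high in the 3 libraries that were high in pancreas markers (log2 1.17 ± 0.89, SE; edgeR adjusted p = 0.714). SLC7A9 (ENSDARG00000005894), the light chain of SLC3A1, averaged 5.43 ± 1.59 and 7.41 ± 4.35 CPM (SD, n = 3 each), and its log2 difference of 0.45 was -0.621 in the libraries low in pancreas markers. SLC7A5, the leucine carrier often measured beside SLC3A2, was not analysed here, and neither was the glutamine carrier SLC1A5. None of the matched genes had either symbol.

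Among the cationic amino acid carriers, the branch of SLC7 that needs no heavy chain, SLC7A3 (ENSDARG00000020645) was about 2 times as high in lf:Yap. It takes up arginine, lysine and ornithine, and read 22.5, 17.6 and 14.8 CPM in WT, against 42.2, 37.5 and 31.9 CPM in lf:Yap. The groups were well apart and each group was tight (2.04-fold; log2 1.03 ± 0.23, SE; edgeR adjusted p = 0.144, DESeq2 0.00869). The second SLC7A3 gene (ENSDARG00000061566) averaged 3.08 ± 0.749 CPM in WT, against 2.86 ± 0.461 CPM in lf:Yap (SD, n = 3 each). The arginine carrier gene of liver, slc7a2 (ENSDARG00000037097), had the most reads of the family and stood at 321, 340.0 and 214.0 CPM in WT, against 329, 386.0 and 335.8 CPM in lf:Yap, with overlap (log2 0.26 ± 0.22, SE; edgeR adjusted p = 0.75). Of the 14 tested SLC7 genes 10 were above 0 and 4 below, 2 on the higher side and 0 on the lower had an unadjusted p under 0.05 (14.3% and 0%, against 6.12% and 5.2% of all genes), and the median was 0.43, or 0.146 in the libraries low in pancreas markers.

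The gene that passed the test over all genes belongs to SLC43, a family of facilitated carriers. SLC43A3 (ENSDARG00000057949) rose 2.84-fold, from 16.9, 15.4 and 15.8 CPM in WT to 39.8, 38.1 and 58.3 CPM in lf:Yap (log2 1.504 ± 0.23, SE; edgeR adjusted p = 0.0445, DESeq2 2.42e-06, limma-voom 0.0412). The WT libraries lay close together (SD 0.779 CPM, n = 3), and every lf:Yap library was more than 2 times as high. Although its family is that of amino acid carriers, SLC43A3 is known in mammals as a carrier of purine nucleobases such as adenine and guanine, which the salvage enzymes turn into nucleotides. The call was near its threshold and did not hold under every setting. Its edgeR adjusted p was 0.0847 to 0.186 when any 1 of the 6 libraries was left out and 0.139 with a block for the replicate number. With upper quartile scaling it was 0.0543, and with the pancreas marker sum as a covariate 0.0636, while the log2 difference stayed between 1.29 and 1.62. The other gene with this symbol, SLC43A3 (ENSDARG00000059682), read 5.08, 2.15 and 3.02 CPM in WT, against 1.61, 2.70 and 1.95 CPM in lf:Yap, and overlapped (-0.71 ± 0.39, log2, SE; edgeR adjusted p = 0.575).

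The leucine, phenylalanine and methionine carriers of the same family gave 1 pair of genes that were higher and 1 pair that overlapped. SLC43A2 (ENSDARG00000036848) read 17.8, 8.07 and 5.004 CPM in WT, against 55.7, 18.5 and 40.2 CPM in lf:Yap. Its lowest lf:Yap library stood just above its highest WT library (3.71-fold; log2 1.89 ± 0.57, SE; edgeR adjusted p = 0.26, DESeq2 0.0228). The other SLC43A2 gene (ENSDARG00000061120) read 49.2, 23.1 and 44.5 CPM in WT, against 60.3, 94.0 and 57.2 CPM in lf:Yap, again without overlap (1.81-fold; log2 0.86 ± 0.34, SE; edgeR adjusted p = 0.411). In contrast, SLC43A1 (ENSDARG00000037748), whose product carries the same amino acids, averaged 94.1 ± 15.3 CPM in WT, against 87.8 ± 41.9 CPM in lf:Yap (SD, n = 3 each), where lf:Yap replicate 3 was the lowest library at 42.7 CPM. The second SLC43A1 gene (ENSDARG00000037393) averaged 7.71 ± 1.97 and 6.88 ± 1.20 CPM.

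Pairs of genes were also compared as ratios of counts within a library, which no scaling of the libraries can move. These 6 ratios were chosen after the values of the genes were seen, and with 3 libraries a group an exact permutation test cannot go below p = 0.1. Ratios at that p had an adjusted p of 0.2 here (Benjamini-Hochberg over all 6, SLC38A4 over SLC38A3 included). The ratio of SLC43A3 (ENSDARG00000057949) to the other SLC43A3 gene was 3.32, 7.13 and 5.21 in WT and 24.8, 14.1 and 29.8 in lf:Yap, a log2 difference of 2.13 (two-sided exact permutation p = 0.1). For SLC7A3 (ENSDARG00000020645) over its paralog it was 7.49, 7.40 and 3.81 in WT and 14.9, 11.3 and 13.2 in lf:Yap (log2 difference 1.13, exact permutation p = 0.1). In these 2 pairs the genotypes did not overlap. The ranges of the genes taken alone already fixed that, so these ratios are descriptions only. SLC38A4 over SLC38A3 (ENSDARG00000091061) gave 13.5, 7.85 and 6.06 in WT and 86.6, 31.1 and 60 in lf:Yap. This too is a description only, since the 2 genes taken alone already fixed that the ratios would not overlap. The exact permutation p of 0.1 of this pair and of the 2 pairs before it was thus set in advance. These values still entered the adjustment over all 6 and so affect the adjusted p of the other pairs. The ratios of SLC3A2 to slc3a2a, of the SLC43A2 genes and of the SLC38A3 genes overlapped (exact permutation p = 0.2, 0.3 and 0.6).

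**Figure D3:**
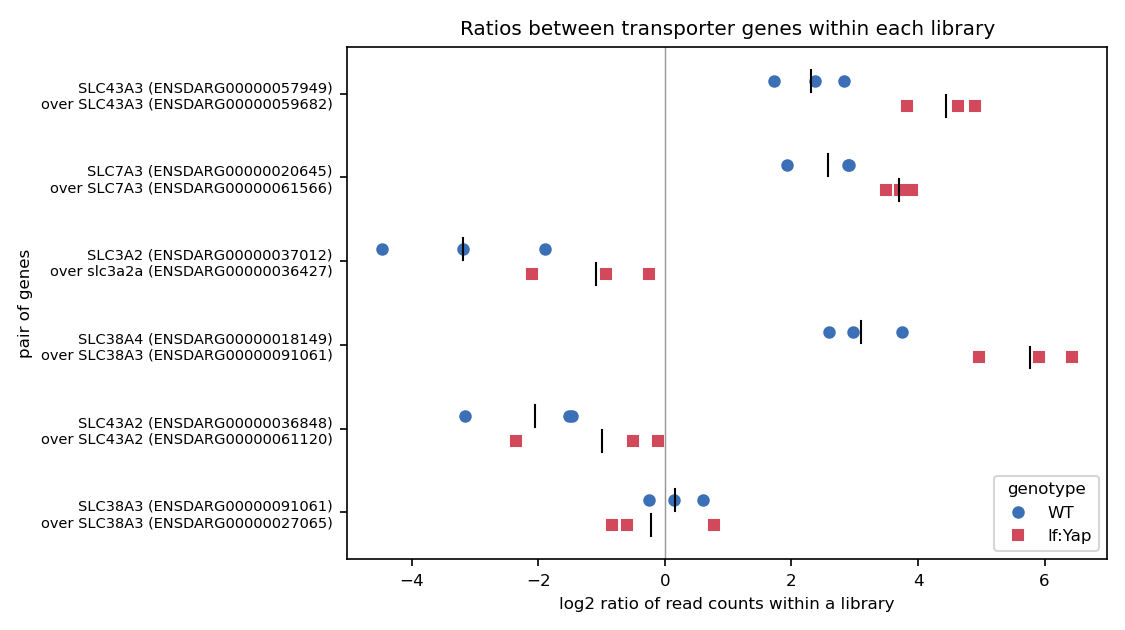
Log2 ratio of the read counts of 2 carrier genes within each library (x axis), for 6 pairs (y axis), with circles for WT, squares for lf:Yap and a bar at each mean of 3 libraries. The lf:Yap ratios lie wholly above the WT ratios for the SLC43A3 pair, the SLC7A3 pair and SLC38A4 over SLC38A3, and overlap for the other 3 pairs.

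SLC1 is the family of glutamate carriers and of exchangers of small neutral amino acids. Of its 6 genes, 1 did not overlap between genotypes, on the higher side. That is 16.7% higher and 0% lower, against 8.84% and 8.78% of all tested genes. SLC1A3 (ENSDARG00000043148), a glutamate and aspartate carrier best known from glia, read 1.13, 0.982 and 2.39 CPM in WT, against 6.08, 3.002 and 8.57 CPM in lf:Yap. The groups did not overlap (3.92-fold; log2 1.97 ± 0.51, SE; edgeR adjusted p = 0.192, DESeq2 0.00563), and lf:Yap replicate 2 was the nearest to WT, with a log2 difference of 0.834 in the libraries low in pancreas markers. SLC1A4 (ENSDARG00000000551), an alanine, serine and cysteine carrier, was high in the 3 libraries that were high in pancreas markers and low in the other 3. It read 2.90, 0.123 and 0.301 CPM in WT, against 1.86, 0.0275 and 3.17 CPM in lf:Yap (log2 0.61 ± 1.46, SE). It was singled out after its values were seen, and the part of pancreas RNA in it was not tested. The remaining 4 genes, SLC1A1, slc1a6 and the 2 SLC1A7 genes, are known as glutamate carriers mainly of neurons and retina, and their log2 differences lay between -0.34 and 0.37. The family median of 0.14 became -0.176 without lf:Yap replicate 3 and -0.499 in the libraries low in pancreas markers.

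Of the 2 SLC36 genes, SLC36A1 (ENSDARG00000075618), a proton-coupled carrier of glycine, alanine and proline on lysosomes and the gut surface, read 3.28, 4.98 and 5.68 CPM in WT, against 11.2, 10.2 and 7.11 CPM in lf:Yap. There was no overlap (2.05-fold; log2 1.03 ± 0.29, SE; edgeR adjusted p = 0.242, DESeq2 0.0476). slc36a4 (ENSDARG00000039661) overlapped, with 2.87 ± 1.19 CPM in WT, against 4.25 ± 2.05 CPM in lf:Yap (SD, n = 3 each).

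Summed over the genes of a family, the reads of SLC3 were 2.51 times as many in lf:Yap, those of SLC43 1.47 times and those of SLC7 1.26 times, and in these 3 families the genotypes did not overlap. For SLC43 and for SLC6, with a ratio of 1.21, the lowest lf:Yap library was barely above the highest WT library. SLC1 and SLC36 overlapped, and so did SLC38 once SLC38A4 was left out, at 464.7 ± 71.0 summed CPM in WT, against 543.6 ± 143.3 in lf:Yap (SD, n = 3 each).

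**Figure D4:**
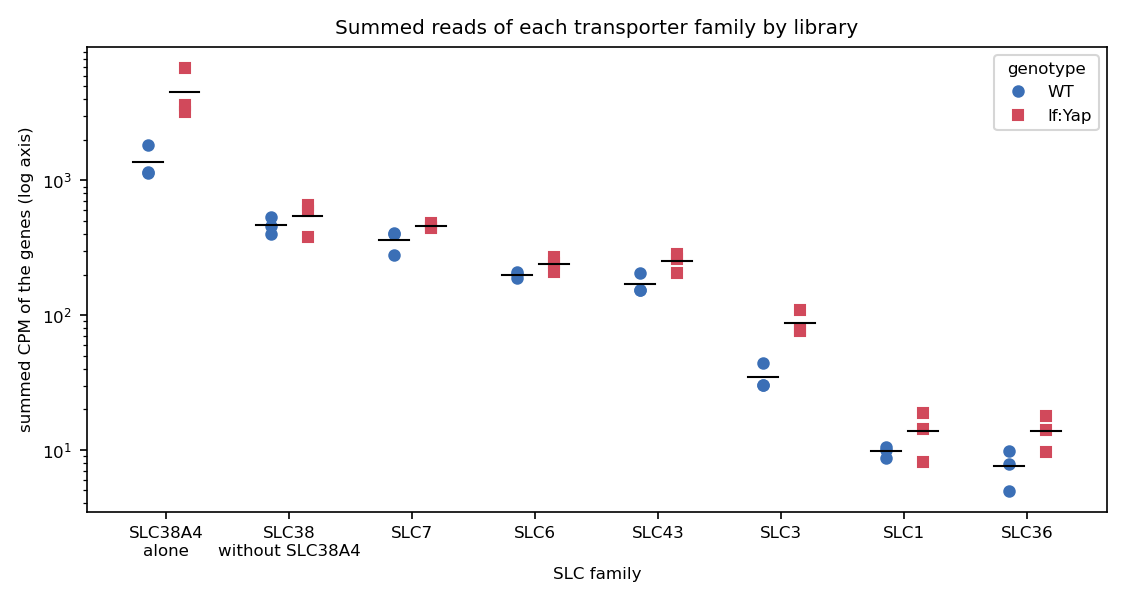
Summed CPM (y axis, log scale) of each SLC family in each library, with SLC38A4 apart from the rest of its family; circles are WT, squares lf:Yap, bars the means of 3 libraries. SLC38A4 and the SLC3 family lie higher in all lf:Yap libraries, from 35.0 to 87.8 mean summed CPM in SLC3, while the rest of SLC38 overlaps.

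SLC6, with 24 genes the family with the most members here and the most varied, was split nearly evenly: 13 of 23 tested genes were above 0 and 10 below, with a median of 0.11 that became -0.076 without lf:Yap replicate 3. At an unadjusted p under 0.05 there were 4 of them on the higher side and 0 on the lower (17.4% and 0%, against 6.12% and 5.2% of all genes). SLC6A4 (ENSDARG00000061165), the serotonin carrier, was the steadiest of them, with 13.8, 13.6 and 10.2 CPM in WT, against 27.5, 22.4 and 26.3 CPM in lf:Yap. The groups were clearly apart (2.03-fold; log2 1.02 ± 0.21, SE; edgeR adjusted p = 0.112, DESeq2 0.00244), and the difference was 0.916 in the libraries low in pancreas markers. SLC6A8 (ENSDARG00000043646), the creatine carrier, read 0.832, 0.670 and 0.822 CPM in WT, against 5.91, 1.02 and 3.09 CPM in lf:Yap, where replicate 2 was just above WT (log2 2.11 ± 0.60, SE; edgeR adjusted p = 0.242, DESeq2 0.0163, and 0.45 on the log2 scale in the libraries low in pancreas markers).

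SLC6A19, the neutral amino acid carrier of the gut and kidney brush border, was matched by 3 IDs, whose high values lay mainly in lf:Yap replicate 1. SLC6A19 (ENSDARG00000018621) read 0.530, 0.179 and 0.162 CPM in WT, against 33.9, 0.551 and 2.61 CPM in lf:Yap. Another ID with the symbol (ENSDARG00000091560) read 1.03, 0.848 and 1.17 CPM in WT, against 24.6, 0.744 and 6.47 CPM in lf:Yap, and the last ID (ENSDARG00000056719) 10.6, 1.24 and 0.0811 CPM and 49.6, 0.179 and 10.01 CPM. In all 3 genes lf:Yap replicate 1 was the highest, and lf:Yap replicate 2 was near or within the WT range. The log2 differences were 5.41 ± 1.56, 3.38 ± 1.06 and 2.33 ± 1.90 (SE; edgeR adjusted p = 0.249, 0.286 and 0.739). Without lf:Yap replicate 1 those of the first and second ID were 2.44 and 1.83, and in the libraries low in pancreas markers 1.69 and -0.438. Of the intestine markers, VIL1 and FABP2 (ENSDARG00000006427, at 79.7 CPM) were also highest in lf:Yap replicate 1, while ANPEP, with few reads, was lowest there. The sum of the list, 817.4 CPM, was within the WT range, but it came mostly from the RBP2 genes, at 486.4 and 224.3 CPM. The part of gut RNA was not tested. In the RefSeq gene order slc6a18, slc6a19a.1 and slc6a19a.2 follow each other directly, and how reads shared by such copies were counted is not stated.

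**Figure D5:**
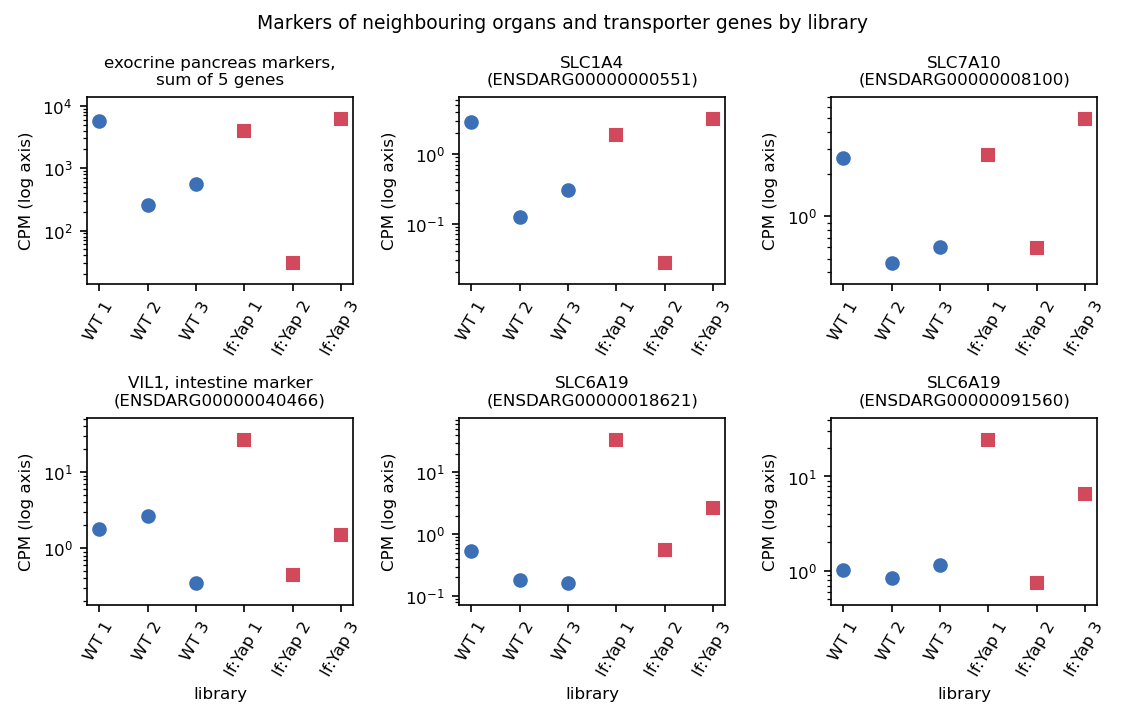
CPM (y axes, log scale) in each of the 6 libraries (x axes; circles WT, squares lf:Yap) of the summed exocrine pancreas markers, the intestine marker VIL1 and 4 carrier genes. SLC1A4 and SLC7A10 are high in WT replicate 1 and lf:Yap replicates 1 and 3, as the pancreas markers are, and both SLC6A19 genes are highest in lf:Yap replicate 1, at 33.9 and 24.6 CPM.

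The remaining 19 tested SLC6 genes had an unadjusted p above 0.05. slc6a22.2 (ENSDARG00000001354) had the most reads of the family, with 103.1 ± 14.1 CPM in WT, against 85.2 ± 36.6 CPM in lf:Yap, and its direct neighbour slc6a22.1 (ENSDARG00000000730) averaged 39.1 ± 24.8 and 42.2 ± 19.1 CPM (SD, n = 3 each). SLC6A13 (ENSDARG00000067567), which takes up GABA in liver, averaged 15.2 ± 3.44 and 17.2 ± 6.97 CPM. slc6a14 (ENSDARG00000029866), a carrier of neutral and cationic amino acids, averaged 6.88 ± 3.26 and 7.33 ± 2.23 CPM. All 4 genes overlapped between genotypes. The glycine carriers SLC6A5 and SLC6A9 and the dopamine carrier SLC6A3 each averaged under 1 CPM over the 6 libraries.

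Genes around the carriers were read from 3 lists. Of 14 other amino acid and peptide carriers 0 passed over all genes (edgeR), 3 had an unadjusted p under 0.05 on the higher side and 0 on the lower (6.12% and 5.2% of all genes), and the median was -0.0328. SLC32A1 (ENSDARG00000059775), the vesicular carrier of GABA and glycine, did not overlap, at 0.0126 to 0.0893 CPM in WT, against 0.222 to 0.754 CPM in lf:Yap (log2 3.53 ± 0.84, SE; edgeR adjusted p = 0.16, DESeq2 0.00583). Nor did slc17a5 (ENSDARG00000055190), a lysosomal carrier of sialic acid (log2 0.73 ± 0.22, SE; edgeR adjusted p = 0.27). SLC15A1 (ENSDARG00000044528), the peptide carrier of the gut, was at 49.1 CPM in lf:Yap replicate 1 and at 0.162 to 0.444 CPM in the other 5 libraries. Among 19 genes of the response to amino acid shortage, which acts on many carrier genes through the factor Atf4, 0 passed over all genes in edgeR, an unadjusted p under 0.05 was reached by 6 on the higher side and 1 on the lower (6.12% and 5.2% of all genes), and the median was 0.301. CHAC1 (ENSDARG00000070426), a glutathione-degrading enzyme and an Atf4 target, came nearest, with 167.1, 118.6 and 31.9 CPM in WT, against 1609, 1307 and 1158 CPM in lf:Yap (edgeR adjusted p = 0.0506, DESeq2 3.22e-09). TRIB3 (ENSDARG00000016200), a pseudokinase of that response, read 13.4, 24.4 and 11.8 CPM in WT, against 47.2, 50.3 and 38.6 CPM in lf:Yap (edgeR adjusted p = 0.127, DESeq2 0.00244). DESeq2 also called DDIT4 (ENSDARG00000037618; adjusted p = 0.000158) and SESN1 (ENSDARG00000020693; adjusted p = 0.00223), inhibitors of mTORC1 signalling, with log2 differences of 3.59 and 1.81 in edgeR. ASNS (ENSDARG00000016375), the asparagine synthetase, overlapped, at 8.22, 7.39 and 24.0 CPM in WT, against 18.5, 12.9 and 4.84 CPM in lf:Yap. So did atf4b (ENSDARG00000038141), an Atf4 gene, with 65.3 to 86.6 CPM in WT, against 77.8 to 157.8 CPM in lf:Yap. The 1 gene on the lower side was atf5b (ENSDARG00000077785), whose genotypes did not overlap. It read 82.3, 96.1 and 84.1 CPM in WT, against 57.7, 59.5 and 37.4 CPM in lf:Yap. Its log2 difference was -0.76 ± 0.23 (SE), with an edgeR adjusted p of 0.272 and 0.105 by DESeq2. Of 19 genes of mTORC1 and of amino acid sensing at it, 0 passed in edgeR, and the median was -0.0739. This list includes SLC38A9, which is also counted among the carriers above. An unadjusted p under 0.05 was reached by 2 of the 19 on the higher side and 0 on the lower (6.12% and 5.2% of all genes). The 2 were SLC38A9 and the mTORC1 activator rheb (ENSDARG00000090213; log2 1.61 ± 0.47, SE; edgeR adjusted p = 0.248, DESeq2 0.0455).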

How the data were processed

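Liver RNA of 3 WT and 3 lf:Yap adult zebrafish samples was read from the authors' deposited table of raw counts of reads per Ensembl gene, which holds 1 column per library and 25640 genes. The submitters' processing notes name HTSeq 0.6.0 and STAR 2.3.0e. Which build, annotation and strand setting applied, and how reads matching several genes were handled, is not stated there or in the labels. A name table gave symbols for 17999 of the genes; 51 of the 68 carriers have symbols in the human style, and 8 symbols are shared by several IDs.

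Counts were tested with edgeR 4.0.16 (R 4.3.3; filterByExpr, TMM factors, robust quasi-likelihood test, genotype as the only term). The filter removed 966 genes, and p-values were adjusted by Benjamini-Hochberg over the 24674 genes tested. CPM are counts divided by the TMM-scaled library size, as edgeR gives them. The biological coefficient of variation was 44.9%. DESeq2 1.42.0, limma 3.58.1 (voom), other scalings and filters, a replicate block and the omission of each library were alternatives. A covariate for pancreas markers and a fit of the 3 libraries low in them were added after seeing the data. The code was tested on simulated data.

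The carriers and lists were chosen with earlier results of these data known. Genes named are the 3 that defined the question (SLC38A4, SLC38A3 and SLC3A2), those with an unadjusted p under 0.05, the most counted gene of each family, and the glutamine carriers and heterodimer partners; their paralogs and a few other carriers were added after their values were seen. Replicates are not labelled as separate fish; p-values therefore reflect only how these samples vary, perhaps for technical reasons. Gene order was read from RefSeq GRCz12tu, without coordinates. Some carrier genes enter the counts and sums but are not reported here by name.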

Additional observations from a re-analysis of the deposited data

How the results depend on the processing

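Over 15 alternatives, SLC43A3 (ENSDARG00000057949) stayed higher in lf:Yap, and the median log2 fold change of the list stayed above 0, from 0.137 to 0.448. SLC6A19 (ENSDARG00000091560), called by DESeq2, was at -0.438 in the libraries low in pancreas markers, and SLC3A1, SLC7A6, SLC7A7, SLC7A9, SLC43A1 (ENSDARG00000037748) and slc6a22.2, called by no tool, also changed sign under some alternative. The number of carriers called moved: DESeq2 gave 13 higher and 1 lower, and 0 were called higher with upper quartile scaling (148 of all genes called) and with the pancreas marker covariate (129). Leaving out any 1 library gave 0 to 0 called higher, 0 to 0 called lower, 12 to 18 higher at an unadjusted p under 0.05 and 1 to 2 lower. With the covariate 2 were lower at that level, and with the libraries low in pancreas markers 7 were higher (10.3%, against 3.63% of all genes); that fit has a single lf:Yap library, assumed to vary as WT does, and the cause of these shifts was not tested. Over all genes 164 were called, against 1063 with DESeq2, 17 with the replicate block and 32 to 94 without 1 library. Same-numbered libraries of the 2 genotypes showed little common deviation (correlations of 0.077, 0.0307 and -0.212 over genes). Such correlations cannot decide whether libraries of the same number were prepared together. The replicate block called 0 carriers, and it lowered the SE of some named carriers, such as SLC38A4, and raised that of others, such as SLC3A2. The median of SLC1 was -0.091 with the filter of 1 CPM in 3 libraries and -0.499 in the libraries low in pancreas markers. With 3 libraries a group, differences near the spread between libraries were not detectable.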

Other observations

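Some carriers stood out in a single library, and these were picked after their values were seen. In lf:Yap replicate 3, SLC6A6, the taurine carrier (ENSDARG00000012534), was at 7.23 CPM against 0.846 to 2.57 CPM in the other 5 libraries. SLC6A2, the noradrenaline carrier (ENSDARG00000016141), was at 1.23 CPM there against 0.0413 to 0.195 CPM, and the GABA carrier SLC6A11 (ENSDARG00000087981), which had too few reads to be tested, was at 1.46 CPM against 0.0608 to 0.116 CPM. In the same library SLC16A10 (ENSDARG00000020984), a carrier of aromatic amino acids, was at 38.9 CPM, where the other 5 libraries lay between 279.8 and 382.3 CPM. SLC6A18 (ENSDARG00000068387), a relative of SLC6A19, was highest in WT replicate 2, at 4.87 CPM. The gut marker FABP2 (ENSDARG00000006427) was at 79.7 CPM in lf:Yap replicate 1 and at 0.909 and 2.11 CPM in lf:Yap replicates 2 and 3, while WT lay between 22.5 and 39.2 CPM.

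In the RefSeq gene order slc38a4 and slc38a2 lie close together, with 2 genes between them. Both were higher on average in lf:Yap, SLC38A4 (ENSDARG00000018149) without overlap between genotypes and SLC38A2 (ENSDARG00000045886) with it. Within WT, replicate 3 had the lowest SLC38A2, at 26.3 CPM, but not the lowest SLC38A4, which replicate 2 had at 1126 CPM.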
